A study of Mus musculus with 12 samples.

Results

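Cytosolic nucleic acid sensors are the proteins by which a cell detects RNA or DNA that lies free in its cytosol, as during a viral infection or after damage to the nucleus or the mitochondria. Genes of 10 such proteins and of the factors directly coupled to them were examined: Rigi, Ifih1, Dhx58, Mavs and Eif2ak2 on the RNA side, Cgas, Sting1 and Trex1 on the DNA side, Zbp1, and the kinase gene Tbk1. They were chosen by name and not by any measured value, as all probes whose RefSeq transcript belongs to one of these genes. Rigi stands on the array under the older name Ddx58, Sting1 under Tmem173 and Cgas under Mb21d1. These genes had 15 of the 55681 probes and made up 10 of the 20887 named genes of the array. Each of the 10 genes had at least 1 probe above the filter on dim probes, and 12 of the 15 probes passed it.

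On the RNA side, Rigi encodes RIG-I and Ifih1 encodes MDA5, a pair of helicases that bind viral RNA, and Dhx58 encodes LGP2, a related helicase that lacks the signaling domains and modulates them. Both helicases signal through MAVS, an adaptor on the outer mitochondrial membrane. Eif2ak2 encodes PKR, a kinase that is activated by RNA duplexes and halts translation. On the DNA side, the enzyme cGAS makes the cyclic dinucleotide cGAMP when it meets DNA, STING on the endoplasmic reticulum binds cGAMP, and the exonuclease TREX1 removes cytosolic DNA before cGAS can meet it. ZBP1 binds nucleic acids in the Z conformation and is coupled to the kinases of necroptosis. TBK1 stands downstream of both MAVS and STING and phosphorylates IRF3, which turns on type I interferon genes. Interferon in turn induces several of the sensors, and in the brain microglia and astrocytes are known for both routes.

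The samples were neurospheres, floating aggregates of neural progenitor cells, grown from the telencephalon of C57BL/6 embryos at day 13 and differentiated for 7 days on a coated surface. WT neurospheres came from wild-type embryos, and APP_WT, BK_APP and HOE_APP neurospheres came from B6.Cg-Tg (APPswe, PSEN1dE9, 85Dbo/J) embryos, which carry a chimeric mouse/human APP transgene with the Swedish mutation and a mutated human presenilin 1 transgene, both directed to neurons of the central nervous system. APP_WT neurospheres were untreated. BK_APP neurospheres received 1 µM bradykinin (BK), the peptide agonist of the B2 kinin receptor, and HOE_APP neurospheres 1 µM HOE-140, a peptide analog of BK that blocks this receptor, each on days 0, 3 and 6 of differentiation. There were no WT neurospheres with BK or HOE-140, so each treatment was compared within the transgenic genotype. RNA was taken on day 7. Each of the 12 2-color arrays held 2 conditions, with 4 arrays for each comparison, namely APP_WT with WT, and BK_APP or HOE_APP with APP_WT (3 comparisons), and the dyes were swapped on replicates 3 and 4. The labels of the HOE_APP arrays name the same treatment in both channels, so the direction of every HOE_APP value below is likely only. It follows the titles, the first channel and the layout of the BK_APP arrays.

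Values are log2 ratios of the first over the second condition named, after background correction, dye normalization and averaging of the spots of a probe, and each gene is represented by its brightest probe. The limma model gave 1 mean log2 ratio per comparison with its standard error (SE), and 0.05 was the threshold for p-values adjusted over all 29343 tested probes. Over all these probes the median log2 ratio was 0.004 in APP_WT versus WT, −0.005 in BK_APP versus APP_WT and 0.000 in HOE_APP versus APP_WT. Between 51.2% and 60.3% of the probes on an array were well above background in at least 1 channel. All arrays of APP_WT versus WT lay on 1 slide and all 8 arrays of the treated neurospheres on the other, so slide and comparison cannot be told apart, although every ratio was formed within an array. As a check of the genotype, the probe for Prnp, whose promoter drives the transgenes, was 0.75 higher in APP_WT than in WT (SE 0.15, adjusted p = 0.0061 by limma), while App was at 0.12 (SE 0.04, adjusted p = 0.092). Whether these probes detect the transcripts of the transgenes was not tested, so the check does not settle the genotype.

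APP_WT versus WT asked how expression differs between untreated transgenic and wild-type neurospheres. Of the RNA-sensing genes 4 were higher in APP_WT neurospheres, of which the call of Dhx58 was lost under several alternatives. Rigi was 2.07-fold higher (95% confidence interval 1.91 to 2.24), Ifih1 2.00-fold (1.66 to 2.40), Eif2ak2 1.60-fold (1.42 to 1.80) and Dhx58 1.40-fold (1.14 to 1.72). These intervals hold for the background correction and normalization used here. With the processed signals of the scanner software the ratios of Ifih1 and Dhx58 were larger, as given below. Of the DNA-sensing genes Sting1 was higher, by 1.31-fold (1.21 to 1.43), and Cgas, Trex1, Zbp1, Tbk1 and the adaptor gene Mavs did not pass the threshold. In all, 5 of the 10 genes were called higher and 0 lower, against 11.6% of all tested probes called higher. By role these were 4 of the 5 RNA-sensing and 1 of the 3 DNA-sensing genes. The ratio was above 0 on 4 of 4 arrays for 6 of the 10 genes, against 15.1% of probes, and the methods' rule of SAM and rank products, both at a p of 0.05 or lower, called 4 of the 10 genes higher (Rigi, Ifih1, Eif2ak2 and Sting1), against 7.65% of probes.

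**Figure D1:**
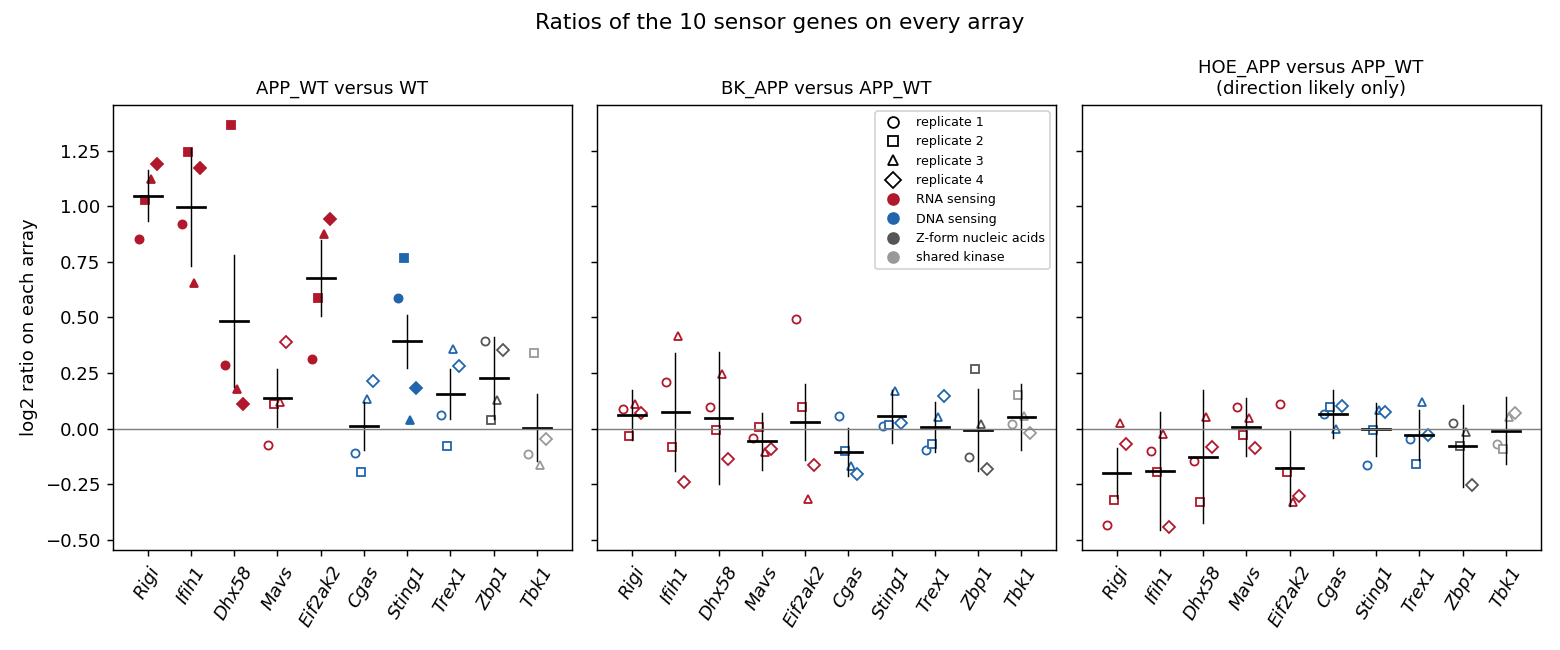
Log2 ratio of each of the 10 genes on each of the 4 arrays of the 3 comparisons. Symbols mark the replicate number and are filled where the gene passed the adjusted threshold. Horizontal lines are the fitted means and vertical lines their 95% confidence intervals. In APP_WT versus WT the symbols of Rigi and Ifih1 lie between 0.66 and 1.25, and in both comparisons of treated neurospheres no gene passed the threshold.

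Rigi had the smallest spread of the called genes. Its log2 ratios were 0.85, 1.03, 1.12 and 1.19 on replicates 1 to 4 (mean 1.05, SE 0.05, adjusted p = 3.6e-07). All replicates were high in both dye orientations, with a mean of 0.94 where APP_WT was Cy3 and 1.16 where it was Cy5. The log2 channel intensities did not overlap between the conditions, at 7.93 ± 0.08 in WT and 8.98 ± 0.15 in APP_WT (SD, n = 4). A second Rigi probe, dimmer than the first, gave log2 ratios of 0.33, 1.06, 0.25 and 0.99 (mean 0.65, SE 0.15, adjusted p = 0.011). It was not well above background on any WT array and well above it on all 4 of APP_WT. Its mean difference was 1.57-fold (confidence interval 1.25 to 1.97), as an estimate and not as a lower limit.

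Ifih1 gave log2 ratios of 0.92, 1.25, 0.66 and 1.17 (mean 1.00, SE 0.12, adjusted p = 2.3e-04). The lowest replicate was still above any ratio of Cgas, Trex1, Mavs, Zbp1 or Tbk1 in this comparison. Its level was near the limit of detection in WT, where the probe was well above background on 3 of 4 arrays, and above it on all arrays in APP_WT. A second Ifih1 probe was above background on 1 of 4 arrays in either condition and was not tested.

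Eif2ak2 gave log2 ratios of 0.31, 0.59, 0.87 and 0.94 (mean 0.68, SE 0.08, adjusted p = 1.6e-04). All were above 0, and the replicates separated by dye, with a mean of 0.45 where APP_WT was Cy3 and 0.91 where it was Cy5.

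For Dhx58 the call depended on single arrays. Its log2 ratios were 0.29, 1.37, 0.18 and 0.11 (mean 0.49, SE 0.13, adjusted p = 0.029), so that replicate 2 stood far above the other 3. Without replicate 2 the mean was 0.21 and the adjusted p was 0.12. The call was also lost without replicate 3 (adjusted p = 0.11) and without replicate 4 (adjusted p = 0.090), without the filter on dim probes (0.057), without the dye coefficient (0.054) and when this comparison was fitted alone (0.15). The probe was well above background on 2 of 4 arrays in WT and on 3 of 4 in APP_WT.

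Mavs, which both helicases need for signaling, gave log2 ratios of −0.07, 0.11, 0.12 and 0.39 (mean 0.14, SE 0.06, adjusted p = 0.14). The adaptor was thus the RNA-sensing gene with the smallest ratio, below all 4 others on replicates 1 to 3. The median over the 5 RNA-sensing genes was 0.68. With the processed signals of the scanner software, and with the log2 ratios deposited as a table, this median was 1.04, with Ifih1 at 1.75 and Dhx58 at 1.04 in both.

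**Figure D2:**
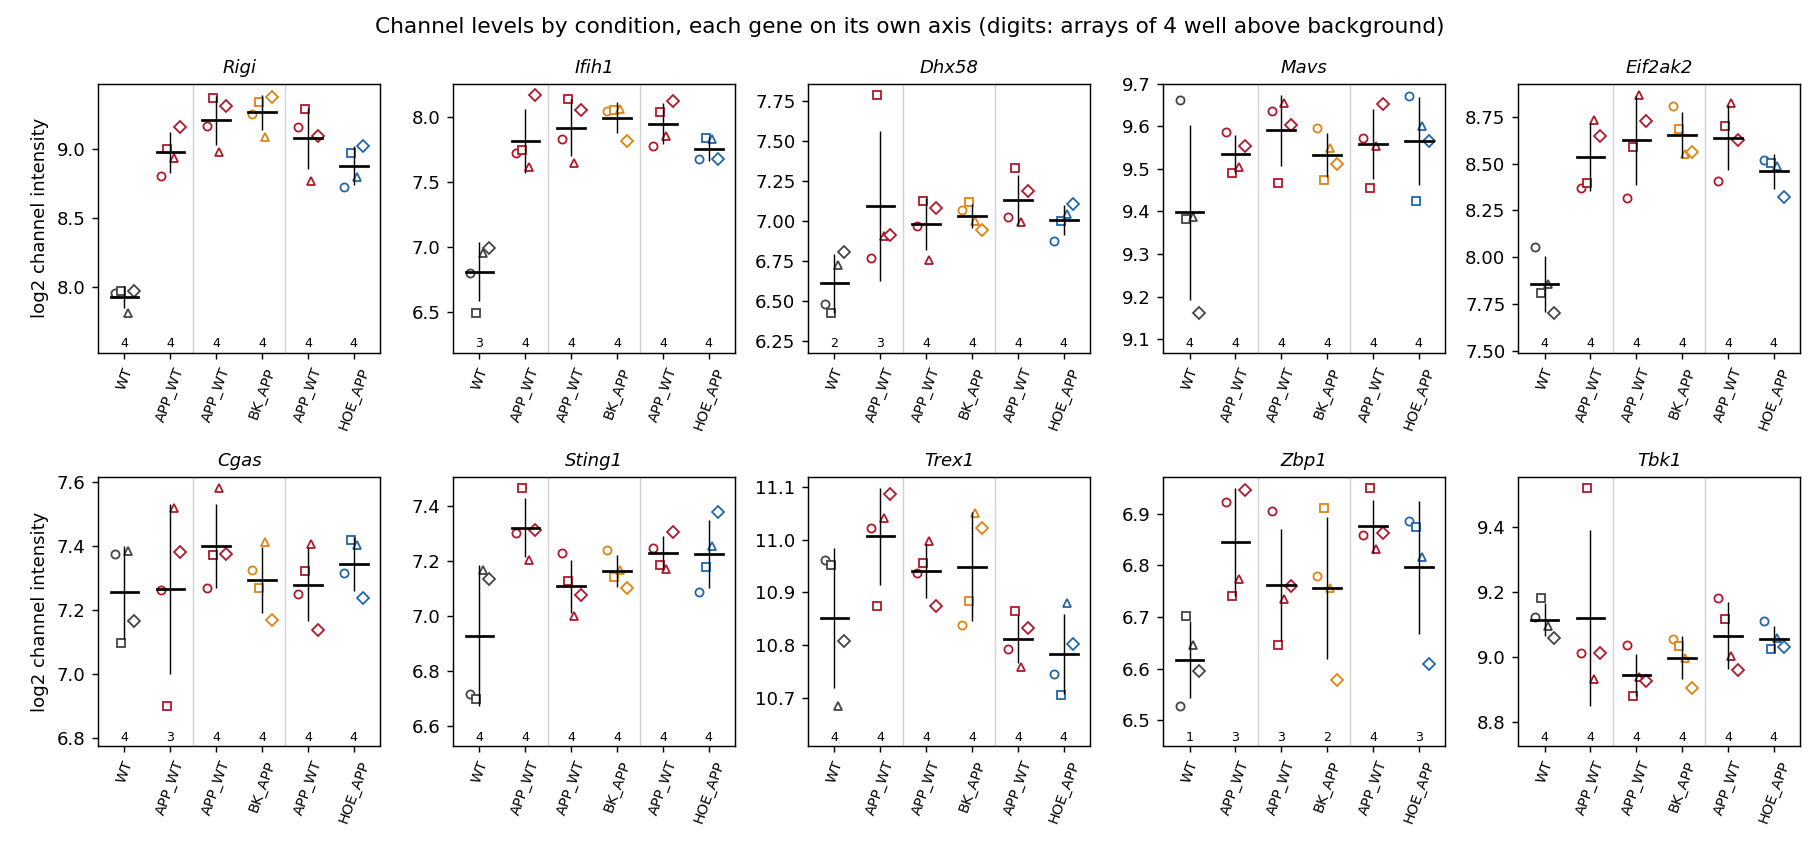
Log2 channel intensity of each gene in each condition, on an axis of its own. The 6 columns are WT and APP_WT, APP_WT and BK_APP, and APP_WT and HOE_APP, hybridized together in pairs on 4 arrays each. Lines are means with SD, and the digit under a column counts the arrays on which the probe was well above background. For Rigi the 4 WT values lie below all 20 values of the other columns.

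The promoter windows of these genes are shown because Rigi, Ifih1 and Eif2ak2, the called RNA-sensing genes that were searched, share a letter pattern in them. RefSeq windows of the build GRCm38.p6, from 250 bases before to 50 after the start of transcription, were at hand for 7 of the 10 genes, with 2 windows for Trex1. Dhx58, Sting1 and Zbp1 were not searched. They were searched on both strands for the core of the interferon-stimulated response element, GAAANNGAAA, and for that of the gamma-activated site, TTCNNNGAA. The first occurred once each in the windows of Rigi, Ifih1 and Eif2ak2 and in none of those of Mavs, Cgas, Trex1 or Tbk1. Of all 32851 promoter windows 3.44% held it. It began 3 bases after the start in Rigi, where it runs on the other strand, 33 bases after it in Ifih1 and 19 bases after it in Eif2ak2, counted from 1 at the first transcribed base. The stretches around the matches read as follows from 5′ to 3′, each on the minus strand, with the match in capitals. The match in Rigi appears in its reverse complement.
Rigi, chr4:40239804-40239833: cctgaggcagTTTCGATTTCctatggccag
Ifih1, chr2:62646206-62646235: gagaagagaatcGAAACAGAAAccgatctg
Eif2ak2, chr17:78882535-78882564: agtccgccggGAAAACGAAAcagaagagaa
The second pattern occurred only in the window of Eif2ak2, upstream of the start, and in 8.3% of all windows. These are matches of letters, and binding of a factor was not measured.

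Of the DNA-sensing genes Sting1 was higher in APP_WT than in WT, and Cgas and Trex1 did not pass the threshold. Sting1 gave log2 ratios of 0.59, 0.77, 0.04 and 0.18 (mean 0.39, SE 0.05, adjusted p = 5.4e-04). All 4 were above 0 but they split by dye, with a mean of 0.68 where APP_WT was Cy3 and 0.11 where it was Cy5. The dye coefficient of the model takes up this split, while the plain SD over the 4 arrays was 0.34. Without the dye coefficient the adjusted p was 0.014, and Sting1 stayed past the threshold when each array was left out in turn.

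Cgas, the DNA sensor itself, gave log2 ratios of −0.11, −0.20, 0.13 and 0.22 (mean 0.01, 95% confidence interval −0.10 to 0.12, adjusted p = 0.91). The sign followed the dye and the interval leaves room for at most a 1.09-fold rise. With the processed signals and with the deposited ratios Cgas was at −0.20 (adjusted p = 0.074 and 0.061). A dimmer Cgas probe gave 0.06, −0.31, −0.05 and −0.01 (mean −0.08, adjusted p = 0.53), and another was above background on no array.

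Trex1 gave log2 ratios of 0.06, −0.08, 0.36 and 0.28 (mean 0.15, SE 0.05, adjusted p = 0.058). Replicates 3 and 4, where APP_WT was Cy5, were the higher ones. The median over the 3 DNA-sensing genes was 0.15, and on each of the 4 arrays it lay below that of the RNA-sensing genes, with values from −0.08 to 0.22 against 0.31 to 1.03. This DNA-sensing median was 0.02 with array medians in place of loess and −0.01 on the arrays with APP_WT in Cy3, where it changed sign, while the RNA-sensing median lay between 0.61 and 1.04 under every alternative tried.

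**Figure D3:**
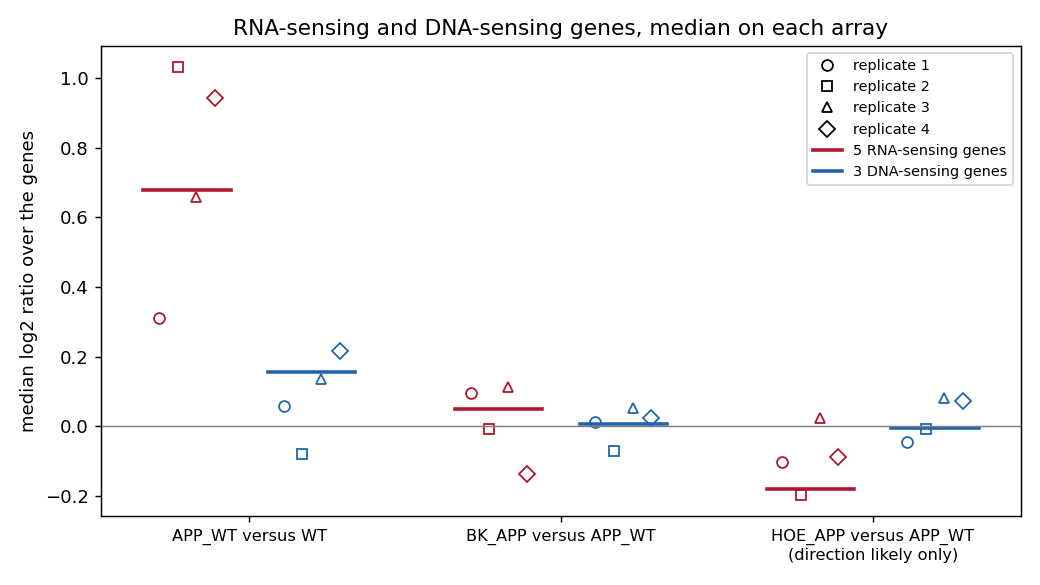
Median log2 ratio over the 5 RNA-sensing genes and over the 3 DNA-sensing genes on each array, by comparison. Thick lines are the medians of the fitted values. In APP_WT versus WT the RNA-sensing medians (0.31 to 1.03) lie above the DNA-sensing medians (−0.08 to 0.22) of the same array, and in the other comparisons all medians lie between −0.20 and 0.11.

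Zbp1 and Tbk1 stand outside both groups. Zbp1 gave log2 ratios of 0.40, 0.04, 0.13 and 0.35 (mean 0.23, SE 0.08, adjusted p = 0.085). All 4 were above 0, but the probe was well above background on 1 of 4 arrays in WT and on 3 in APP_WT, and Zbp1 passed the threshold when replicate 2 was left out (mean 0.32, adjusted p = 0.046). A probe for another Zbp1 transcript was above background on no array. Tbk1 gave log2 ratios of −0.11, 0.34, −0.16 and −0.05 (mean 0.004, 95% confidence interval −0.15 to 0.15, adjusted p = 0.98). Replicate 2 was the only one above 0.

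Microglia, which are among the cells known to express these sensors, differed in the same comparison. Of 12 microglial marker genes on the array 11 were tested (P2ry12 was below the filter), and the median log2 ratio was 1.16. Called higher in APP_WT were 9, against 11.6% of all probes, and lower 1, against 7% of all probes. Cx3cr1, the fractalkine receptor of microglia, was at 2.31 (SE 0.07, adjusted p = 2.1e-08), Tyrobp at 2.22, Aif1, which encodes IBA1, at 2.21 and Trem2 at 1.60, while Itgam was at 0.11 (adjusted p = 0.43) and Sall1 was lower at −0.30 (adjusted p = 0.0031). The summed intensity of the 11 markers ranged from 10189 to 12439 in WT and from 13736 to 17560 in APP_WT, without overlap, and no marker was undetected on all arrays of a condition. Markers of astrocytes were higher as well, with 6 of 7 called, against 11.6% of all probes. Their median was 0.43 (Gfap, the filament protein gene of astrocytes, at 0.69). Their summed intensity ranged from 96039 to 118229 in WT and from 133119 to 147340 in APP_WT, again without overlap. The part of these cells in the higher levels of Rigi, Ifih1, Eif2ak2 and Sting1 was not tested. In such bulk cultures fewer cells of a type and less RNA per cell cannot be told apart. Of the markers of other cell types, 2 of 8 for neurons and 2 of 6 for progenitors were called higher and as many lower. Called lower were also 1 of 6 for oligodendrocytes and 3 of 4 for pericytes and fibroblasts, and none of 3 for endothelium was called. Over all probes 11.6% were called higher and 7% lower. Of the peripheral myeloid and lymphoid markers 1 of 7 was tested, and it was at 0.02 (adjusted p = 0.84).

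Of 56 partner genes of the sensors 49 were tested, 12 were called higher in APP_WT, against 11.6% of all probes, and 1 lower, against 7% of all probes. Their median was 0.04, against 0.004 over all probes. The largest increases were those of Trim25, Rhbdf2 and Ifi204. Trim25, the ubiquitin ligase that activates RIG-I, gave log2 ratios of 1.02, 1.27, 1.17 and 1.38 (mean 1.21, SE 0.08, adjusted p = 2.4e-06). All were of the size of those of Rigi itself. Rhbdf2 encodes iRhom2, which helps STING to leave the endoplasmic reticulum, and gave 1.03, 0.76, 1.04 and 1.34 (mean 1.04, SE 0.10, adjusted p = 6.3e-05). Ifi204 encodes a DNA-binding protein of the AIM2-like family and gave 0.93, 0.70, 0.99 and 1.21 (mean 0.96, SE 0.13, adjusted p = 4.0e-04). In WT neither probe rose clearly over background on any of the arrays. WT values below the dimmest level counted as well above background on their array were raised to that level. The mean difference was then 2.06-fold for Rhbdf2 and 1.94-fold for Ifi204, as estimates and not as lower limits.

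On the RNA side 15 of 19 partners were tested, with 3 higher, none lower and a median of 0.03 (all probes, 11.6% higher and 7% lower). Besides Trim25 these were Oasl1 at 0.81, an interferon-induced gene that was above background on 1 of 4 WT arrays, and Traf2 at 0.40, an adaptor of the MAVS complex. On the DNA side 22 of 23 were tested, with 5 higher and 1 lower, against the same 11.6% and 7%, and a median of 0.08. Besides Rhbdf2 and Ifi204 these were Trim56 at 0.40, a ubiquitin ligase of the STING route, Xrcc5 at 0.21, which encodes Ku80, Rnaseh2a at 0.18, a subunit of ribonuclease H2, and Banf1 at −0.18, whose product covers DNA (adjusted p = 0.045). For Xrcc5 and Rnaseh2a the ratio was below 0 on replicate 3, so the direction was not shared by all arrays.

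Of the 4 partners of ZBP1 3 were tested, and 1 was called, against 11.6% of all probes higher. Ripk1, the kinase gene of necroptosis and inflammatory signaling, was the one that was higher at 0.33 (adjusted p = 0.0078). Ripk3 was not above the filter. Of the 10 partners of TBK1 9 were tested and 3 were higher (11.6% of all probes), namely Traf3 at 0.37, an adaptor between MAVS and TBK1, Irf7 at 0.37, the interferon-induced relative of IRF3, and Ikbke at 0.23, the kinase gene most similar to Tbk1. Irf7 rose clearly over background on no WT array and on 2 arrays in APP_WT. With WT values raised in the same way as for Rhbdf2, its mean difference was 1.24-fold, also as an estimate. Ifnb1, the product of this route, was not above the filter, so no level of it can be given.

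**Figure D4:**
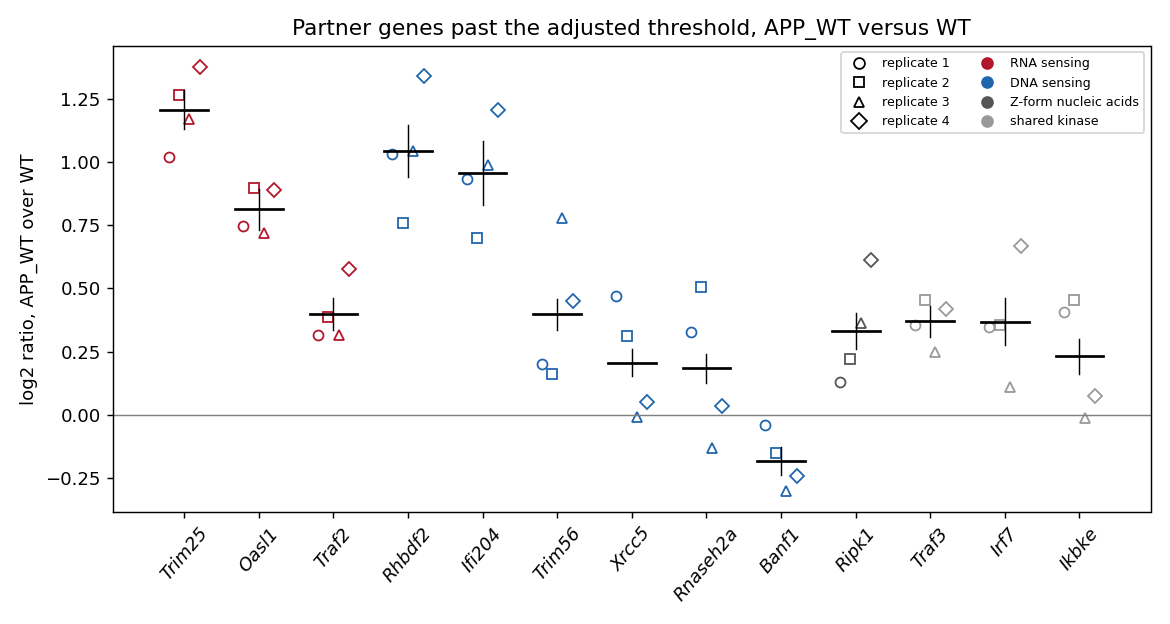
Log2 ratio of APP_WT over WT on each array for the 13 partner genes past the adjusted threshold, grouped by the sensor they work with. Symbols mark the replicates, horizontal lines the fitted means and vertical lines 1 SE on either side. Trim25, Rhbdf2 and Ifi204 lie highest, with all symbols between 0.70 and 1.38, and all symbols of Banf1 lie below 0.

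BK_APP versus APP_WT asked what BK adds in the transgenic neurospheres. None of the 10 genes was called (smallest adjusted p = 0.97 by limma), 0 of 10 had an unadjusted p below 0.05, against 4.46% of probes, and SAM and rank products called 0 of 10, against 1.83% of probes. The fitted log2 ratios of the brightest probes lay between −0.10 and 0.08. Their median was 0.05 for the RNA-sensing and 0.01 for the DNA-sensing genes. With the brightest probe Rigi gave 0.09, −0.03, 0.11 and 0.07 (mean 0.06, 95% confidence interval −0.05 to 0.17). For this probe the interval leaves room for at most a 1.13-fold rise. The dimmer tested Rigi probe had a mean of 0.15 (interval −0.18 to 0.48), which leaves room for a 1.39-fold rise. Ifih1 gave 0.21, −0.08, 0.41 and −0.24 (mean 0.08, interval −0.19 to 0.34), and Eif2ak2 0.49, 0.10, −0.32 and −0.16 (mean 0.03, interval −0.14 to 0.20). These replicates fall on both sides of 0, for Eif2ak2 by dye.

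Among the brightest probes that of Cgas had the largest difference in size, with log2 ratios of 0.06, −0.10, −0.17 and −0.21 (mean −0.10, interval −0.21 to 0.003). Sting1 gave 0.01, 0.02, 0.17 and 0.02 (mean 0.06, interval −0.06 to 0.17), so that replicate 3 stood apart. Dhx58, Mavs, Trex1, Zbp1 and Tbk1 had means between −0.06 and 0.05. Of the 49 tested partners 0 were called and 0 had an unadjusted p below 0.05, against 4.46% of probes. The largest were Rnaseh2b at 0.16 (SE 0.07) and Rnaseh2c at 0.12 (SE 0.09), a pair of ribonuclease H2 subunits, and the lowest Ifi204 at −0.15 (SE 0.13) and the helicase gene Ddx3x at −0.07 (SE 0.07). Microglial markers had a median of 0.10, with 9 of 11 above 0 and 4 at an unadjusted p below 0.05, of which Tyrobp was highest at 0.32 (adjusted p = 0.97). Astrocyte markers had a median of −0.05, with 5 of 7 below 0 and 3 at an unadjusted p below 0.05. For both lists the share of all probes below that limit was 4.46%.

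HOE_APP versus APP_WT asked what blocking the B2 receptor does. Again none of the 10 genes was called (smallest adjusted p = 0.92 by limma), and SAM and rank products called 0 of 10 lower, against 1.52% of probes. Values of the RNA-sensing genes were mostly below 0. At an unadjusted p below 0.05 stood 2 of the 10 genes, both lower, against 2.72% of probes lower at that limit. They were Rigi, with −0.44, −0.32, 0.03 and −0.07 (mean −0.20, SE 0.05, unadjusted p = 0.0026), and Eif2ak2, with 0.11, −0.20, −0.33 and −0.30 (mean −0.18, SE 0.08, unadjusted p = 0.040). Rigi was low on the replicates with HOE_APP in Cy5 and near 0 on the others, and Eif2ak2 the other way round. The dye coefficient of the model takes up these splits, while the plain SD over the 4 arrays was 0.21 for Rigi and 0.20 for Eif2ak2. The dimmer tested Rigi probe gave −0.08, 0.001, 0.07 and −0.41 (mean −0.11, unadjusted p = 0.49 by limma), above 0 on 2 of 4 arrays. Ifih1 was below 0 on 4 of 4 arrays, with −0.10, −0.20, −0.03 and −0.44 (mean −0.19, interval −0.46 to 0.07), and Dhx58 on 3 of 4 (mean −0.13, interval −0.42 to 0.17).

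The median over the RNA-sensing genes was −0.18, with Mavs at 0.01, and that over the DNA-sensing genes was −0.004. Cgas gave 0.06, 0.10, −0.002 and 0.10 (mean 0.07, interval −0.04 to 0.17) with the brightest probe and 0.10, −0.18, −0.23 and −0.17 (mean −0.12, interval −0.28 to 0.05) with the dimmer one, so its direction differed between the probes. Sting1 was at −0.004 (interval −0.12 to 0.12), Trex1 at −0.03, Zbp1 at −0.08 and Tbk1 at −0.01. With the direction of the HOE_APP arrays turned, all these values have the opposite sign. None of the 49 partners was called, and 4 had an unadjusted p below 0.05 (3 lower and 1 higher), against 5.02% of probes in either direction. The lowest were Trim25 at −0.21 (SE 0.08) and Oasl1 at −0.19 (SE 0.08), and the highest Mlkl, the effector gene of necroptosis, at 0.15 (SE 0.06) and Rnaseh2b at 0.12 (SE 0.07). All 11 microglial markers were below 0 (median −0.07, adjusted p at least 0.92), as were all 7 astrocyte markers (median −0.10). Of the latter 2 had an unadjusted p below 0.05, against 2.72% of probes lower at that limit. The part of either list in the values of the RNA-sensing genes was not tested.

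BK and HOE-140 were given at the same dose and on the same days, so their values can be set against each other, as a contrast in the same model with 10 genes compared. None of the 10 differences was called (adjusted p = 1.00 for each by limma). At an unadjusted p below 0.05 stood 2 of 10, against 2.49% of probes. Rigi was higher with BK than with HOE-140 by 0.26 (interval 0.10 to 0.42, unadjusted p = 0.0046) and Cgas lower, at −0.17 (interval −0.32 to −0.02, unadjusted p = 0.031). The differences between arrays of the same replicate number were 0.52, 0.29, 0.09 and 0.14 for Rigi, 0.31, 0.12, 0.44 and 0.20 for Ifih1, and 0.38, 0.30, 0.02 and 0.14 for Eif2ak2. All 12 of these differences, from the brightest probes, were above 0 in the likely direction. Dhx58, Mavs, Sting1, Trex1, Zbp1 and Tbk1 each had differences on both sides of 0. The share of all probes with every difference on the same side of 0 is not given here, so this agreement cannot be called a trait of these genes. The dimmer tested Rigi probe gave 0.64, −0.01, 0.08 and 0.32 (mean 0.26, unadjusted p = 0.25 by limma), so it was below 0 on replicate 2. For Cgas the differences were −0.01, −0.20, −0.17 and −0.31 with the brightest probe. The dimmer tested Cgas probe went the other way on 4 of 4 arrays, with 0.05, 0.01, 0.17 and 0.14 (mean 0.09, unadjusted p = 0.40). The Cgas probes thus disagree on the direction. With the direction of the HOE_APP arrays turned, Rigi gave −0.35, −0.36, 0.14 and 0.004 (mean −0.14), Ifih1 had a mean of −0.12, Eif2ak2 of −0.15 and Cgas of −0.04, each with arrays on both sides of 0, and 0 of 10 genes had an unadjusted p below 0.05, against 7.92% of probes.

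Arrays with the same number deviated together in BK_APP and HOE_APP, and with these numbers as a fixed replicate block, that is as paired differences, 5 of the 10 genes had an unadjusted p below 0.05, against 7.87% of probes. They were Ifih1 (unadjusted p = 0.0035), Rigi, Eif2ak2, Cgas and Dhx58 (unadjusted p = 0.037), the last with a mean of 0.18. In that paired fit too none of the 10 genes passed after adjustment (smallest adjusted p = 0.48 by limma). Of all 29342 probes in that fit 0 passed as well (smallest adjusted p = 0.061), so this is no trait of the 10 genes. The other 5 genes had differences between −0.07 and 0.07, with intervals in the model without the block of −0.25 to 0.12 for Mavs, −0.11 to 0.23 for Sting1, −0.12 to 0.20 for Trex1, −0.19 to 0.34 for Zbp1 and −0.15 to 0.27 for Tbk1. The 11 microglial markers were all above 0 in this contrast without the block (median 0.17). Of them 3 had an unadjusted p below 0.05, against 2.49% of probes. Astrocyte markers had a median of 0.04 with 4 of 7 above 0, and the part of either list in these differences was not tested. In the turned direction 6 of the 11 microglial markers were above 0, and the paired fit had 0 of the 10 genes at an unadjusted p below 0.05, against 1.96% of probes. Among the partners Trim25 had the largest difference (0.32, SE 0.11) and Slc19a1 the lowest (−0.14, SE 0.07). In the turned direction these were −0.09 and 0.02, and Rnaseh2b was highest at 0.28 and Ifi204 lowest at −0.30.

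**Figure D5:**
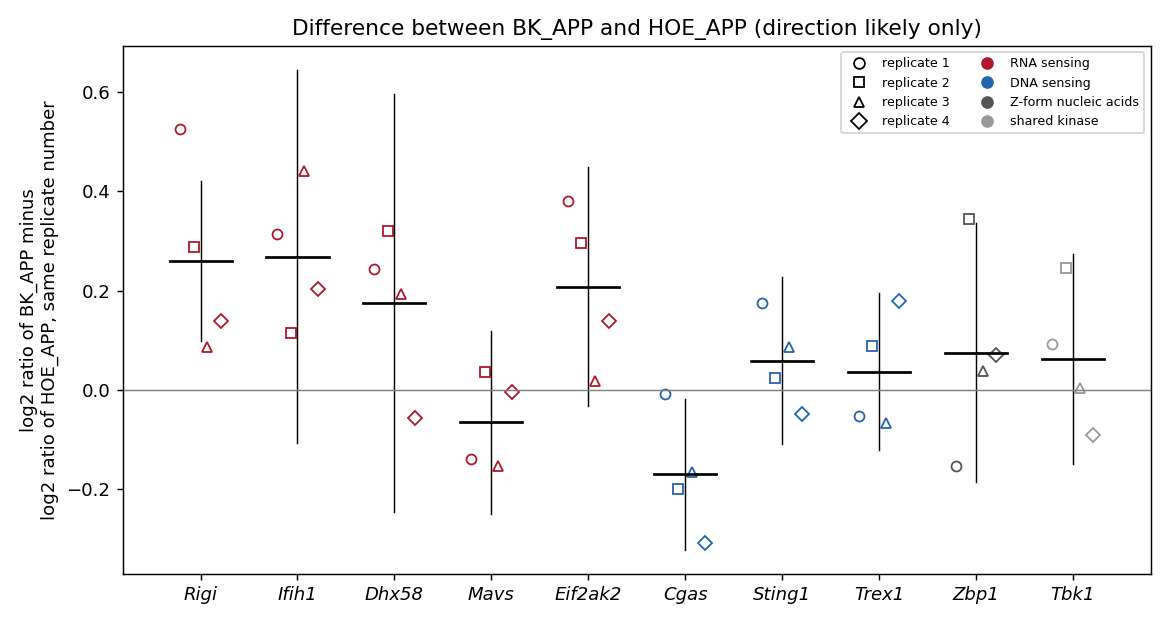
Log2 ratio of BK_APP minus that of HOE_APP on the array of the same replicate number, for each of the 10 genes. Horizontal lines are the fitted differences and vertical lines their 95% confidence intervals. All 4 differences are above 0 for Rigi, Ifih1 and Eif2ak2 and below 0 for Cgas. If the HOE_APP arrays run the other way, the values of these 4 genes fall on both sides of 0.

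Across all 12 arrays, the genes whose ratios ran most like the mean of Rigi, Ifih1 and Dhx58 were Slc41a1 (Pearson r = 0.987), Parp10 (0.978), Gmfg (0.978), Slc15a3 (0.976) and Pacsin2 (0.972). Those most like the mean of Cgas, Sting1 and Trex1 were Capsl (0.983), Tekt4 (0.971), Vav1 (0.967), Morn5 (0.962) and Ms4a7 (0.958). The 12 arrays share APP_WT as a condition and fall into 3 comparisons, so these values mostly describe the step between APP_WT versus WT and the rest, and they were picked as the highest of 14138 genes. Cgas, Sting1 and Trex1 did not run alike, so their mean is not a profile that they share. Pearson r was −0.47 for Cgas with Sting1, −0.03 for Sting1 with Trex1 and 0.25 for Cgas with Trex1.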

How the data were processed

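RNA of differentiated WT, APP_WT, BK_APP and HOE_APP neurospheres was hybridized to 12 SurePrint G3 mouse arrays (Agilent, 2 colors), with 4 independent replicates per comparison, as the methods state. Conditions and dyes came from the sample labels, and the direction of HOE_APP is likely only. The authors deposited for each array the scanner output, with median spot and background intensity in both channels and no normalization, with flags, with processed intensities (background subtracted and dyes normalized by the software), and with the log10 ratio of the latter. The headers name Feature Extraction 11.0.1.1. A second file that the authors deposited holds log2 ratios, with a column for every array. These ran with the scanner ratios in the direction used here, with medians of −0.16 to 0.04, so scale, centering and sign were known, apart from the direction of HOE_APP itself.

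Median signals were background corrected with normexp (offset 50) and normalized by loess (span 0.3, weight 0 for control and uneven spots) in limma 3.58.1 (R 4.3.3). Control spots (3671 of 62976) were left out and uneven spots set as missing. A probe was kept (29361 of 55681) if 1 condition of a comparison was well above background on 3 or more of its 4 arrays, and 29343 of them, 443 with a missing value, had the 3 values per comparison that a test needs. None of the values of the 10 genes was missing. One limma model with a mean and a dye coefficient per comparison was fitted over all 12 arrays (6 coefficients, 6 residual and 4.56 prior degrees of freedom). Tests were two-sided with Benjamini-Hochberg adjustment over all tested probes. The p-values of single genes are those of the moderated test unless SAM or rank products is named. SAM (16 sign flips) and rank products (100 permutations), which the methods name, were programmed anew. The fit was tested on simulated data. Channel levels are those after loess and quantile normalization of the mean intensities, and they set no gene against another. RefSeq identifiers were named through a RefSeq table of another assembly, used for names (27509 of 29150 probes with an identifier). Promoter windows came from RefSeq, GRCm38.p6, which is not the build of the array design.

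The replicate numbers pair BK_APP and HOE_APP. The deviations of same-numbered arrays from their group means correlated at 0.52 to 0.68 in the 4 pairs, against 0.10 to 0.31 for other numbers of the same dye orientation. Arrays of APP_WT versus WT correlated with those of the same number at −0.60 to −0.30, and their dyes were opposite.

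One partner gene is not reported here. The genes and lists were chosen with earlier results of these data known. Named are all 10 genes and their probes, of the partners the 3 largest increases and decreases past the threshold, or the 2 largest in each direction where none passed, App and Prnp, and the 5 genes most like either mean profile. The other partners and the markers were named after their values were seen. Alternatives were other background and dye corrections, filters, probes, designs, single arrays left out and the HOE_APP sign turned. The fixed replicate block (also with the HOE_APP sign turned) and the means by dye orientation were chosen after seeing the data. The number of arrays limits the precision. The p-values measure the spread between these replicates.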

Additional observations from a re-analysis of the deposited data

Results flagged for a closer look

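Dhx58 in APP_WT versus WT had 1 array far from the others, replicate 2 at a log2 ratio of 1.37, with the gap to the nearest array taking 0.859 of the whole range. Sting1 in BK_APP versus APP_WT had replicate 3 at 0.17 apart from the other 3 arrays, with a gap of 0.922 of the range, although all 4 values were small. Both gaps exceed the 95% critical value of Dixon's test for 4 arrays, which chance passes in about 1 of 20 groups.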

How the results depend on the processing

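The counts of called genes (5 in APP_WT versus WT, 0 in the other comparisons) stayed within 1.5 times of these values under every alternative, with 4 by SAM and rank products. With the random replicate block (consensus correlation −0.15) the count in APP_WT versus WT was also 5 and the others were 0, and the paired fit of BK_APP minus HOE_APP gave 0 calls, so the block changed no call. Of the 10 genes only Dhx58 lost its call, under 6 alternatives and by SAM and rank products, and only Zbp1 gained one, both as given above.

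Medians over the genes moved more. The RNA-sensing median in APP_WT versus WT was 1.04 with processed signals and 1.04 with deposited ratios. With array medians in place of loess the DNA-sensing median was 0.0152 in APP_WT versus WT, 0.0772 in BK_APP, 0.0898 in HOE_APP and −0.0125 in BK_APP minus HOE_APP, and on arrays with APP_WT in Cy3 it was −0.0091. For BK_APP minus HOE_APP the RNA-sensing median was 0.32 with processed signals and with deposited ratios. With the HOE_APP sign turned the RNA-sensing median was 0.18 in HOE_APP versus APP_WT and −0.12 in BK_APP minus HOE_APP, where the DNA-sensing median was −0.0209. The cause of these shifts was not tested, apart from the turned sign. Probes of Dhx58, Zbp1 and Ifih1 in WT lie near the background, which limits what their ratios can show.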
